A study of Mus musculus with 2 samples.

Results

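The 39 genes described here encode proteins of the lysosome (27 genes) and of the vacuolar proton pump that acidifies it (12 genes). They were chosen by name, with earlier results of these data known, out of 15622 genes with at least 1 read. Reads were summed over all transcripts of each gene. The data are 2 libraries of native poly(A)+ RNA from interscapular brown fat, a heat-producing depot, of male C57BL/6N mice aged 20 weeks. The cold library pooled RNA of 3 mice kept singly at 4 °C for 24 h. The control library is labelled ctrl; general housing was at 22 to 24 °C, and how many mice it pooled is not stated in the labels. The treatment field of both libraries describes the cold stay and the extraction text names another fat depot, so groups were taken from the treatment label alone. Each group is a single library, so no test of the cold was possible. Parentheses after a ratio or share hold 95% intervals for counting error alone. "Higher" and "lower" mean in the cold library, with an interval clear of 1. Pairs of values give the control library first and the cold library second.

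The lysosome is the compartment in which cells break down protein, lipid, glycogen and whole organelles. Its enzymes work in acid, which the vacuolar proton pump provides: the V1 sector on the cytosolic side hydrolyses ATP, and the V0 sector in the membrane passes protons inward. TFEB and TFE3 are transcription factors that bind E-box elements near many lysosomal gene starts. In brown fat, lysosomes also take part in clearing mitochondria by autophagy.

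Ucp1, the uncoupling protein that defines brown adipocytes, had 14860 and 14526 reads and was 1.21-fold higher (1.18 to 1.23). All 14 brown adipocyte markers had at least 20 reads, and together they were 1.19-fold higher (1.17 to 1.20). Fabp4, with 20610 and 20787 reads, and Ucp1 held most of the 46682 and 44980 reads in that sum. Of the 14, 7 were higher, 2 were lower and 5 had intervals that held 1, beside 11.3% each way among all genes with at least 20 reads. Deep genes are called more often: of 2677 genes with at least 100 reads, 19.2% were higher and 20.1% lower. At least 1.5-fold higher were 3 of the 14 markers and 1.5-fold lower 1, beside 8.06% and 7.44% of all genes. These markers ran from 6.03-fold higher (3.96 to 9.49) for Ppargc1a, a coactivator known to respond to cold, to 1.52-fold lower (1.36 to 1.70) for Adipoq, adiponectin. The 15 skeletal muscle markers were all higher, at 0.0448% and 0.203% of reads and a summed ratio of 4.00 (3.69 to 4.35). Muscle also expresses lysosomal genes, and its part in the results below was not tested. In bulk RNA, more cells of a type and more RNA per cell cannot be told apart.

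All 39 genes had reads in both libraries. They held 8888 and 8720 reads of 1698124 and 1215617, which is 0.523% (0.513 to 0.534) and 0.717% (0.702 to 0.732). After trimmed-mean scaling of the libraries, their sum was 1.21-fold higher (1.17 to 1.246), and 1.13-fold higher (1.09 to 1.16) without Ctsz, a gene left out after its value was seen. At least 20 reads over both libraries were found for 35 of the 39. Of these, 15 were higher, 4 were lower and 16 had an interval that held 1, beside 11.3% higher and 11.3% lower among all 7529 genes of that depth. The set was chosen with earlier results of these data known, so such counts describe it and are not a test. Deep genes have narrower intervals, so the count was repeated at 100 or more reads: 14 of 27 were higher and 4 lower, beside 19.2% and 20.1% of 2677 genes. The median log2 ratio was 0.37 over the 35 genes and -0.00 over all 7529. At least 1.5-fold higher were 10 genes (8.06% of all genes), and 1 gene, Npc2, was at least 1.5-fold lower (7.44%). At 100 or more reads these counts were 9 and 1, beside 10.2% and 9.08% of genes. At least 2-fold higher were 3 genes (4.2% of all genes) and 2-fold lower none (4.08%). Most differences were therefore under 2-fold.

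**Figure D1:**
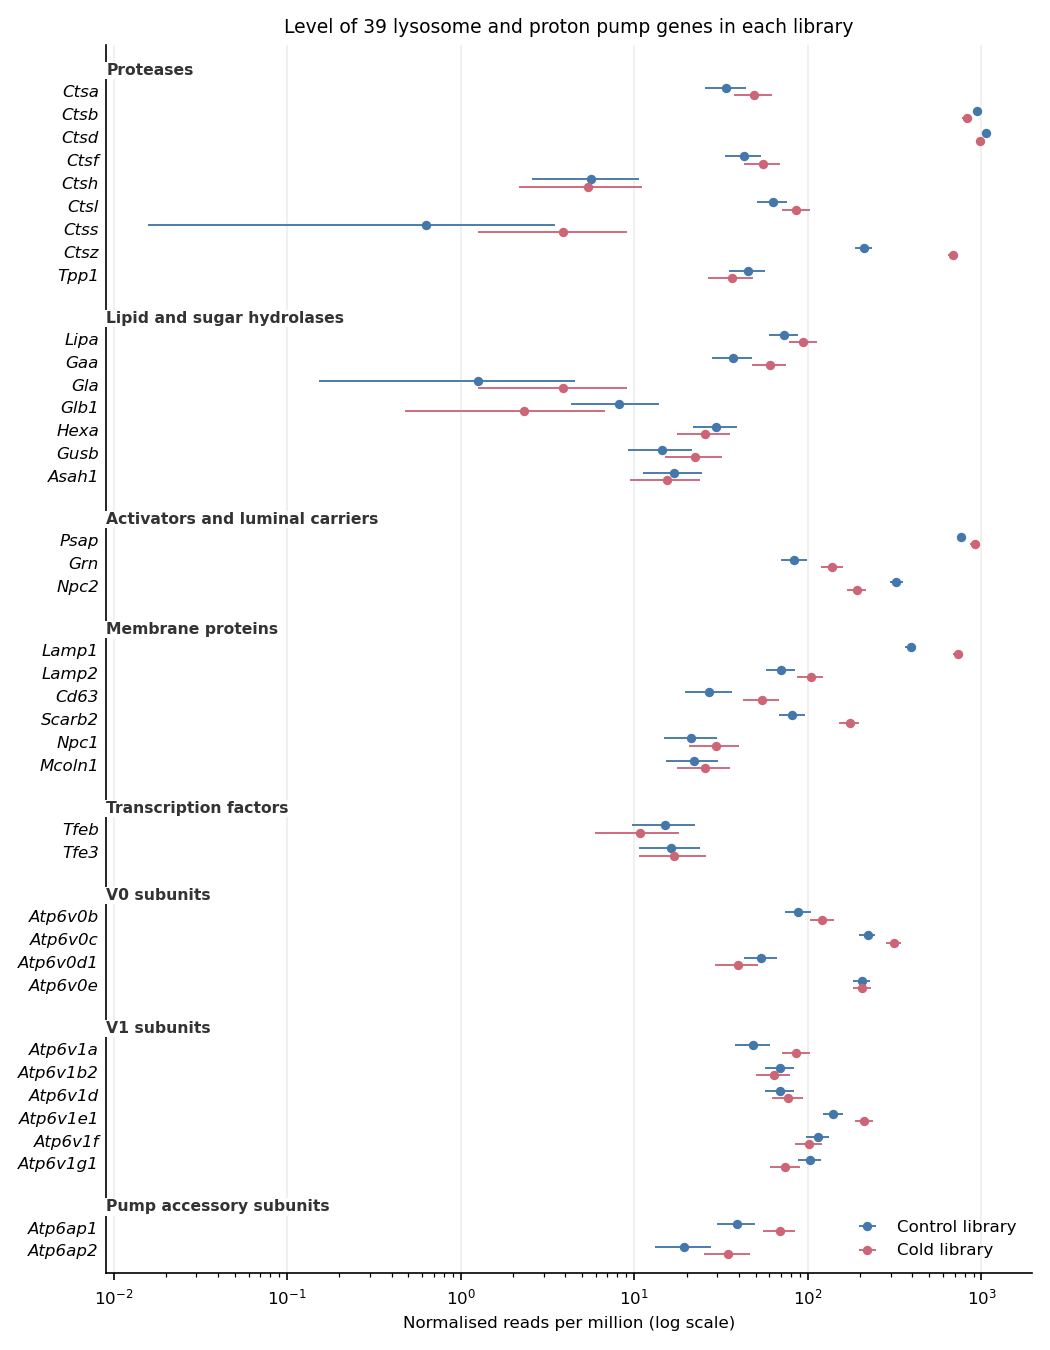
Level of each of the 39 genes in the control (blue) and cold (red) library, in normalised reads per 1000000 on a log scale, with 95% counting intervals, grouped by role. The points lie clearly apart for Ctsz (209 and 688), Lamp1 (390 and 729), Scarb2 (81.5 and 174) and Npc2 (323 and 192).

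Levels are given as normalised reads per 1000000, that is, reads divided by the scaled library size. They are not divided by transcript length, and levels are compared between the libraries rather than between genes. Ctsd, Ctsb and Psap held 49.8% and 40.5% of the set's reads. The share of Lamp1 was 7.01% and 10.8%, and that of Ctsz 3.76% and 10.2%. The make-up of lysosomal reads thus differed between the libraries.

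Cathepsins are the lysosome's proteases, and Ctsz had the highest ratio among all members with at least 20 reads. It encodes cathepsin Z, which trims single residues from the carboxyl end of proteins, and lies on GRCm38 chromosome 2 (174427493 to 174439039, minus strand). Ctsz had 334 and 890 reads, or 209 and 688 normalised reads per 1000000, and was 3.29-fold higher (2.89 to 3.74). It ranked 34 from the top of the 2677 genes with at least 100 reads. A single annotated transcript, Ctsz-201, carried all of its reads. The 250 bases before its RefSeq start (GRCm38.p6, minus strand, chr2:174439040-174439289) are shown because they go with the largest difference; they hold no E-box CACGTG, which would stand in capitals.
Ctsz: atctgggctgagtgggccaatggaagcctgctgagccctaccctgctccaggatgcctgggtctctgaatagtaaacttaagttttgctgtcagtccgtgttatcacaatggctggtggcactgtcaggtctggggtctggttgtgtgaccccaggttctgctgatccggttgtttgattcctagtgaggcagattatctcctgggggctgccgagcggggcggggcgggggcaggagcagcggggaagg

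The other deep cathepsins were nearer to equal. Ctsd, the main aspartic protease of lysosomes, had 1702 and 1277 reads and was 1.08-fold lower (1.005 to 1.16). Ctsb, a cysteine protease, had 1501 and 1066 reads and was 1.14-fold lower (1.05 to 1.24). Both differences depended on the scaling: with total counts the log2 ratio of Ctsd was 0.07 in place of -0.11, and that of Ctsb -0.01 in place of -0.19. Ctsl, a cysteine endopeptidase, had 100 and 111 reads and was 1.37-fold higher (1.04 to 1.81). Ctsa, a carboxypeptidase that also protects partner enzymes, had 54 and 63 reads and a ratio of 1.44 (0.984 to 2.11). Ctsf, another cysteine protease, had 68 and 71 reads and a ratio of 1.29 (0.910 to 1.82). Tpp1, which removes tripeptides, had 72 and 47 reads and a ratio of 0.805 (0.545 to 1.18). Those last intervals all held 1. Ctsh had 9 and 7 reads with a ratio of 0.959 (0.304 to 2.89). Ctss, the cathepsin of antigen-presenting cells, had 1 and 5 reads with a ratio of 6.17 (0.690 to 292). At so few reads the intervals are too wide to place either ratio above or below 1. The 9 proteases together were 1.14-fold higher (1.08 to 1.19), and without Ctsz, left out after its value was seen, they were 1.07-fold lower (1.02 to 1.13). That direction also turned with the scaling, since as shares of all reads these 8 genes made up 0.207% and 0.218%.

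The 7 enzymes that split lipid and sugar chains had 287 and 290 reads and together were 1.246-fold higher (1.05 to 1.47). Gaa, which frees glucose from glycogen, had 59 and 78 reads and was 1.63-fold higher (1.15 to 2.33), the only one with an interval clear of 1. Lipa, the acid lipase that splits cholesteryl esters and triglyceride, had 116 and 122 reads and a ratio of 1.30 (0.998 to 1.69), an interval that just held 1. Gusb, which removes glucuronic acid from sugar chains, had 23 and 29 reads and a ratio of 1.55 (0.869 to 2.81). Hexa, a hexosaminidase subunit, had 47 and 33 reads and a ratio of 0.866 (0.537 to 1.38). Asah1, the acid ceramidase, had 27 and 20 reads and a ratio of 0.913 (0.486 to 1.69). These enzymes lay on both sides of 1. Gla, an alpha-galactosidase, had 2 and 5 reads and a ratio of 3.08 (0.505 to 32.4). Glb1, the acid beta-galactosidase, had 13 and 3 reads and a ratio of 0.285 (0.0520 to 1.04).

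Activators and carriers in the lumen differed from each other. Psap, whose product is cut into the saposins that present lipids to hydrolases, had 1222 and 1185 reads and was 1.20-fold higher (1.10 to 1.30). Grn, progranulin, a glycoprotein processed in lysosomes, had 133 and 179 reads and was 1.66-fold higher (1.32 to 2.09). Npc2, the luminal protein that takes up freed cholesterol, was the only member at least 1.5-fold lower. It lies on chromosome 12 (84754562 to 84773152, minus strand). Npc2 had 516 and 248 reads, or 323 and 192 normalised reads per 1000000, and was 1.69-fold lower (1.45 to 1.97), rank 141 from the bottom of the 2677 genes. Npc1, the membrane protein that receives cholesterol from Npc2, had 34 and 38 reads and a ratio of 1.38 (0.845 to 2.26), an interval that held 1. It did not overlap that of Npc2, and how often this holds for other pairs of genes was not counted. The 250 bases before the RefSeq start of Npc2 (GRCm38.p6, minus strand, chr12:84773113-84773362) are shown as the counterpart of Ctsz at the low end; they hold no E-box CACGTG.
Npc2: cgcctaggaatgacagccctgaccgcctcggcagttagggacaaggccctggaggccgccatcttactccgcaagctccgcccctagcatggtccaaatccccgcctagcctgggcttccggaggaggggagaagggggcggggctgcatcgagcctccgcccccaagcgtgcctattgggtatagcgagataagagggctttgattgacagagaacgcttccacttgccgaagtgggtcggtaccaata

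All 6 membrane proteins of the lysosome, Npc1 included, had a log2 ratio above 0, as did 3744 of all 7529 genes. Of the 6, 4 were higher, beside 11.3% of all genes. Those 4 had at least 100 reads, a depth at which 19.2% of 2677 genes were higher. Together the 6 were 1.82-fold higher (1.68 to 1.98), and 1.75-fold higher (1.52 to 2.01) without Lamp1, left out after its value was seen. Lamp1, a heavily glycosylated protein that lines the lysosomal membrane, lies on chromosome 8 (13159161 to 13175338, plus strand). It had 623 and 943 reads and was 1.87-fold higher (1.69 to 2.07). Scarb2, which brings beta-glucocerebrosidase to lysosomes, lies on chromosome 5 (92441314 to 92506833, minus strand). It had 130 and 225 reads and was 2.13-fold higher (1.71 to 2.67). Cd63, a tetraspanin of late endosomes and lysosomes, had 43 and 70 reads and was 2.01-fold higher (1.35 to 3.01). Lamp2, the relative of Lamp1 that also serves in autophagy, had 111 and 134 reads and was 1.49-fold higher (1.15 to 1.93). Mcoln1, a calcium channel of the lysosomal membrane, had 35 and 33 reads and a ratio of 1.16 (0.700 to 1.93). The 250 bases before the RefSeq start of Lamp1 (GRCm38.p6, plus strand, chr8:13158911-13159160) hold 4 E-boxes, in capitals, more than any other member's window.
Lamp1: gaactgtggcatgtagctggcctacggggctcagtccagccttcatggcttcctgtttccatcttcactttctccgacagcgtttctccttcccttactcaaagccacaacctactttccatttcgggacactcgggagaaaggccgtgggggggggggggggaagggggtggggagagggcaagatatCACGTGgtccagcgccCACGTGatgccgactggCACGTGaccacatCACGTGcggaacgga

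The transcription factors had few reads. Tfeb had 24 and 14 reads and a ratio of 0.719 (0.344 to 1.45). Tfe3 had 26 and 22 reads and a ratio of 1.04 (0.564 to 1.91). Both intervals held 1 and were wide. The activity of these factors depends largely on whether the protein is in the nucleus, which RNA does not show.

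**Figure D2:**
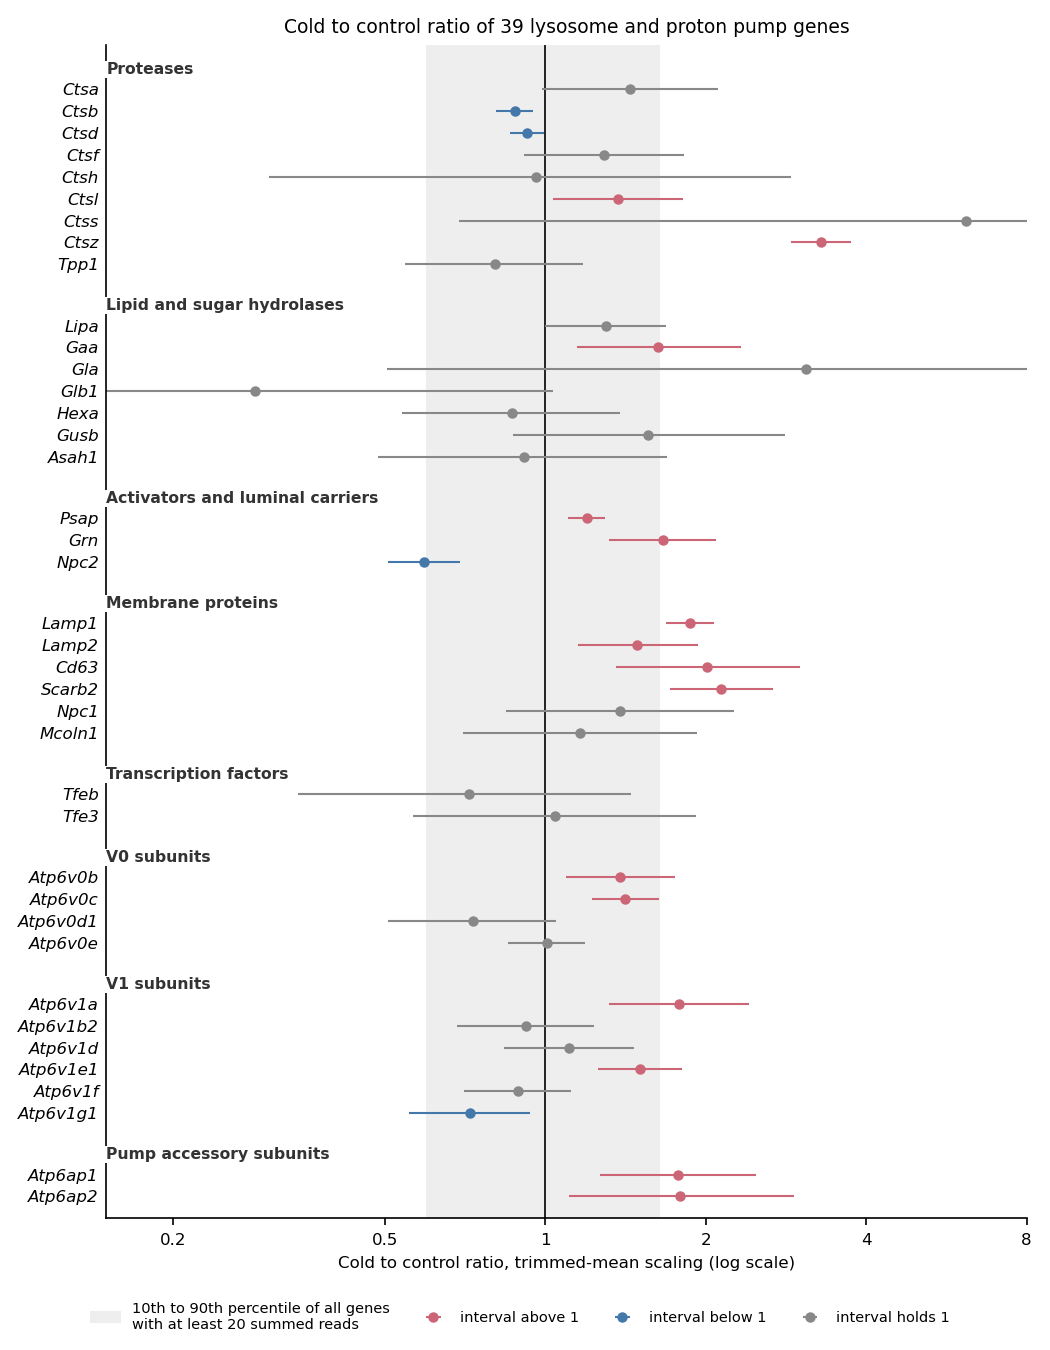
Cold to control ratio of each of the 39 genes on a log scale with its 95% counting interval, coloured by whether the interval lay above 1 (15 genes), below it (4) or held it; intervals of Ctss, Gla and Glb1 run past the axis. The band is the 10th to 90th percentile of all 7529 genes with at least 20 reads. Ctsz lies farthest beyond it among the deeper genes, and Npc2 lies beyond it on the low side.

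The vacuolar proton pump was measured through 12 genes, each with at least 20 reads. Together they had 1863 and 1802 reads and were 1.19-fold higher (1.12 to 1.27). Of the 12, 6 were higher and 1, Atp6v1g1, was lower, beside 11.3% each way among all genes. Of the 11 with at least 100 reads, 5 were higher and 1 lower, beside 19.2% and 20.1% of the 2677 genes of that depth. With total counts the call of Atp6v1g1 was lost, and 0 of the 12 were lower. That scaling raises the ratios of all genes alike, to a median log2 ratio of 0.17. The share of all genes then lower is not given here. The median log2 ratio was 0.31 over the 12 genes and 0.15 over the 11 with at least 100 reads.

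In the membrane sector V0, both proteolipids of the rotating ring were higher. Atp6v0c, the main ring subunit, had 352 and 403 reads and was 1.41-fold higher (1.22 to 1.63). Atp6v0b, the related ring subunit, had 140 and 157 reads and was 1.38-fold higher (1.09 to 1.75). The other V0 genes had intervals that held 1. Atp6v0e, a small membrane subunit, had 325 and 265 reads and a ratio of 1.01 (0.852 to 1.19). Atp6v0d1, which couples the ring to the central stalk, had 86 and 51 reads and a ratio of 0.731 (0.507 to 1.05).

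In the V1 sector, Atp6v1a, the catalytic subunit, had 77 and 111 reads and was 1.78-fold higher (1.32 to 2.41). Its partner in the head of the pump, Atp6v1b2, had 110 and 82 reads and a ratio of 0.919 (0.682 to 1.23). The intervals of these partners did not overlap, and how often this holds for other pairs of genes was not counted. Atp6v1e1, of the outer stalks, had 224 and 273 reads and was 1.503-fold higher (1.255 to 1.80). Atp6v1g1, with which it pairs there, had 164 and 96 reads and was 1.39-fold lower (1.07 to 1.80). Atp6v1d, of the central stalk, had 110 and 99 reads and a ratio of 1.11 (0.837 to 1.47). Atp6v1f, also of that stalk, had 182 and 131 reads and a ratio of 0.888 (0.704 to 1.12). Both accessory subunits, which assist the pump's assembly, were higher. Atp6ap1 had 62 and 89 reads and was 1.77-fold higher (1.27 to 2.49). Atp6ap2, also known as the prorenin receptor, had 31 and 45 reads and was 1.79-fold higher (1.11 to 2.93).

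Of 13 further pump subunits, Atp6v0a4, Atp6v0d2, Atp6v1b1, Atp6v1e2 and Atp6v1g3 were listed in neither library. Of the 4 with at least 20 reads, 2 were higher and none lower, beside 11.3% each way among all genes. Atp6v0a2, a form of the large V0 subunit, had 60 and 112 reads and was 2.30-fold higher (1.67 to 3.20). Atp6v0a1, another form of it, had 50 and 41 reads and a ratio of 1.01 (0.652 to 1.56). Their intervals did not overlap, which was likewise not counted for other pairs of genes. Atp6v1h, a regulatory V1 subunit, had 72 and 82 reads and was 1.40-fold higher (1.01 to 1.95). Atp6v1c1, which joins the sectors, had 86 and 69 reads and a ratio of 0.989 (0.710 to 1.37).

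**Figure D3:**
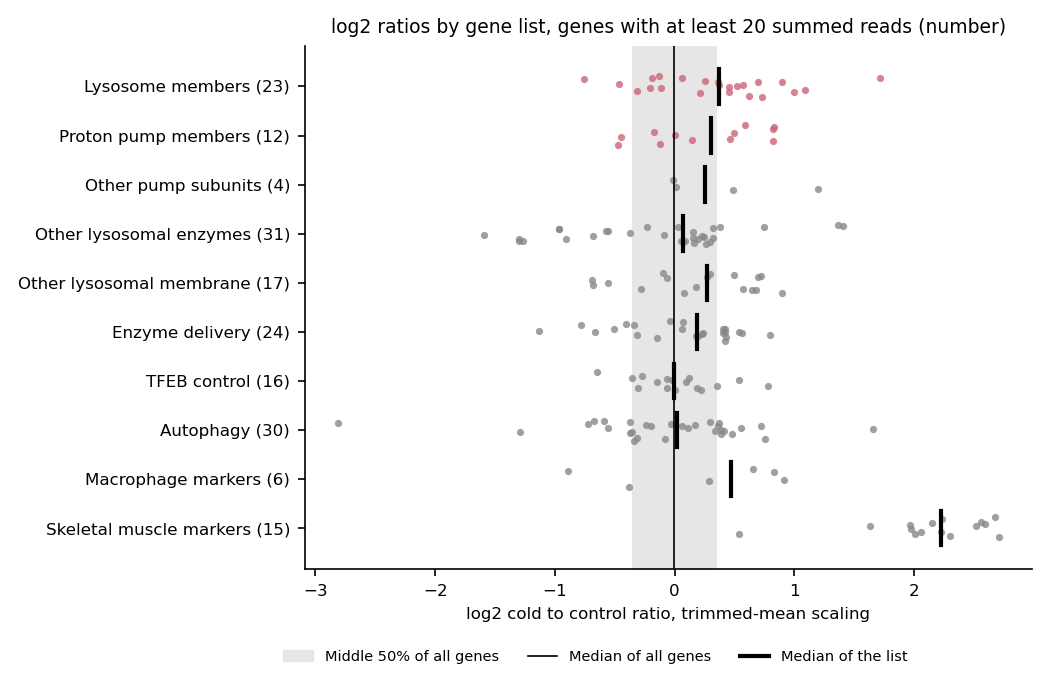
log2 cold to control ratios of genes with at least 20 reads, 1 point a gene and 1 row a list (number of genes in brackets), with each list's median marked and the middle of all 7529 genes as a band. The medians are 0.37 for the lysosome members, 0.31 for the pump members, 0.07 for other lysosomal enzymes, 0.02 for autophagy genes and 2.22 for muscle markers.

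Of 31 other lysosomal enzymes with at least 20 reads, 3 were higher (9.68%) and 2 lower (6.45%), with a median log2 ratio of 0.07. Among all 7529 genes of that depth 11.3% were called each way. Gm2a, the activator that presents ganglioside to hexosaminidase, had 57 and 19 reads and was 2.43-fold lower (1.43 to 4.33). The deepest of the list, Acp5, an acid phosphatase, had 269 and 259 reads and a ratio of 1.19 (0.997 to 1.41). Of 17 other lysosomal membrane proteins with at least 20 reads, 2 were higher (11.8%) and 1 lower (5.88%), with a median of 0.27. Tpcn1, an ion channel, had 99 and 126 reads and was 1.57-fold higher (1.20 to 2.06). Laptm4a had 353 and 235 reads and was 1.22-fold lower (1.03 to 1.44). Of 22 genes that control TFEB at the lysosome, 16 had at least 20 reads, with 2 higher (12.5%), 1 lower (6.25%) and a median of -0.01. Fnip1, a partner of folliculin, had 27 and 38 reads and was 1.74-fold higher (1.03 to 2.96). Lamtor2, of the scaffold that anchors mTORC1 to lysosomes, had 180 and 93 reads and was 1.57-fold lower (1.22 to 2.04). Lamtor1, the anchor of that scaffold, had 247 and 201 reads and a ratio of 1.00 (0.829 to 1.21).

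Macrophages are rich in lysosomes, so their markers were set beside these results. The 24 markers summed to 174 and 177 normalised reads per 1000000, a ratio of 1.02 (0.849 to 1.21). Cd74, of antigen presentation, had 119 and 52 reads and was 1.86-fold lower (1.33 to 2.62); without it, left out after its value was seen, the others had 159 and 177 reads and a ratio of 1.37 (1.10 to 1.71). Of the 6 with at least 20 reads, 2 were higher and 1 lower, with a median log2 ratio of 0.47, beside 11.3% called each way among all genes. The part of macrophages in the results was not tested. Of the defining markers, Adgre1 had 2 and 0 reads, Cd68 9 and 5 and Csf1r 7 and 10, and Cx3cr1 was listed in neither library. Lyz2, lysozyme, had 31 and 45 reads and was 1.79-fold higher (1.11 to 2.93). C1qa, a complement subunit, had 20 and 31 reads and was 1.91-fold higher (1.06 to 3.54). Its partner subunits had intervals that held 1: C1qb had 17 and 22 reads and a ratio of 1.60 (0.809 to 3.20). C1qc had 21 and 13 reads and a ratio of 0.763 (0.351 to 1.60). The 12 endothelial markers together were 1.38-fold higher (1.30 to 1.45), and had a ratio of 1.15 (1.05 to 1.26) without Cd36, a fatty acid carrier that adipocytes also express, left out after its value was seen. Of the 12, 4 were higher, 1 was lower and 7 had intervals that held 1, beside 11.3% called each way among all genes. The part of endothelial cells in the result was not tested.

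Transcripts were then compared within genes. Of 16 members with at least 100 reads in each library, 13 had reads on more than 1 transcript. In 5 of these 13 the share of a transcript differed by at least 5 percentage points with an interval clear of 0, beside 10.5% of the 980 genes with several transcripts at that depth. How reads that match several transcripts were assigned is not stated in the labels, so splits between similar transcripts are uncertain. Whether strand was used is not stated either, and genes on the other strand overlap some members: Nelfcd (28 and 21 reads) overlaps Ctsz, Grtp1 (23 and 20) Lamp1, and Pltp (102 and 46) Ctsa.

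Ctsl had the largest shift. Its reads fell on 2 transcripts of chromosome 13 (minus strand) with the same 7 coding segments. Ctsl-201 (64363214 to 64370306) ends in an exon of 987 bases. Ctsl-205 (64359337 to 64370890) begins further upstream and ends in an exon of 4864 bases, so they differ in their untranslated ends. Ctsl-201 had 60 and 45 reads and a ratio of 0.925 (0.614 to 1.38). Ctsl-205 had 40 and 66 reads and was 2.03-fold higher (1.35 to 3.09). The long form held 40.0% (30.3 to 50.3) of the control reads of the gene and 59.5% (49.7 to 68.7) of the cold reads, a difference of 19.5 percentage points (5.95 to 32.0).

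Lamp2 shifted between last exons. Its transcripts share 8 of 9 coding segments and differ in the last, which encodes the membrane span and tail. Lamp2-201, whose last exon lies at 38405062 to 38405571 of chromosome X, had 43 and 72 reads and was 2.06-fold higher (1.40 to 3.09). Lamp2-202, whose last exon lies at 38419507 to 38421851, had 66 and 59 reads and a ratio of 1.10 (0.763 to 1.59). Lamp2-203 had 2 and 3 reads. The share of Lamp2-202 was 59.5% (49.7 to 68.7) of the control reads and 44.0% (35.5 to 52.9) of the cold reads.

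The remaining shifts were smaller. Psap-202 held 24.0% (21.6 to 26.5) and 29.5% (26.9 to 32.1) of its gene's reads. Grn-201, the longest form, held 91.0% (84.8 to 95.3) and 97.2% (93.6 to 99.1). Atp6v1f-201 held 90.7% (85.5 to 94.5) and 97.7% (93.5 to 99.5). For Npc2, the coding transcript Npc2-201 had 471 and 237 reads and was 1.61-fold lower (1.38 to 1.89) on its own, and the retained-intron transcript Npc2-203 had 45 and 11 reads.

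**Figure D4:**
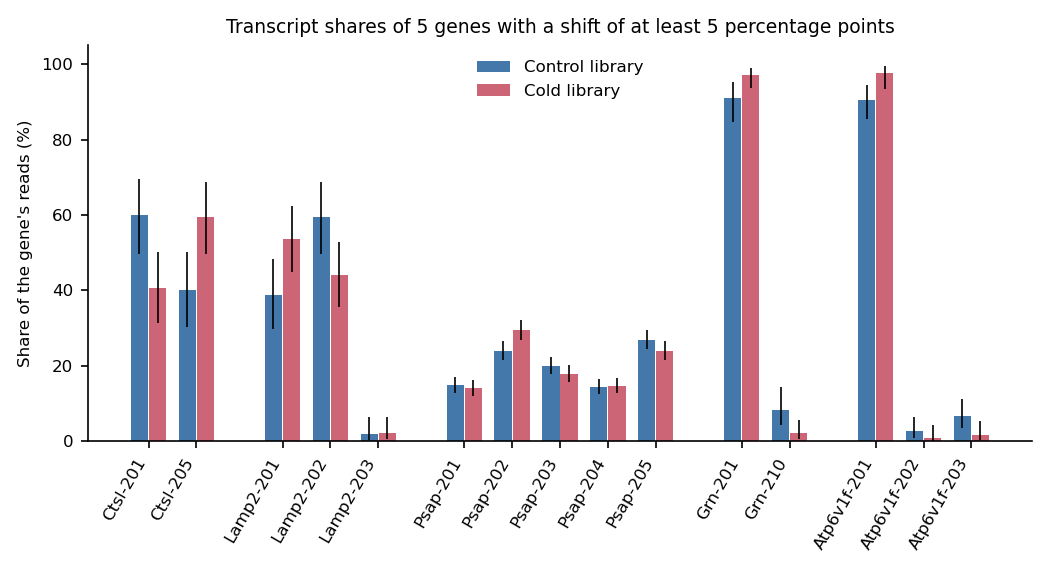
Share of each gene's reads per transcript (bars, percent) in the control (blue) and cold (red) library with 95% counting intervals, for the 5 genes with a shift of at least 5 percentage points and transcripts with at least 5 reads. Ctsl-205 stands at 40.0% and 59.5%, and Lamp2-202 at 59.5% and 44.0%.

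Promoters were searched for the E-box to which TFEB and TFE3 bind. Windows from 250 bases before to 50 after a gene's RefSeq start (GRCm38.p6) were found for 33 of the 39 genes. The windows of Asah1, Atp6v1b2, Atp6v1g1, Ctsb, Ctsh and Npc1 were not analysed here. CACGTG, which reads the same on both strands, was found in 13 of the 33 (39.4%) and in 8.09% of the 27025 genes in the table. TCACGTGA was found in 7 (21.2%) and 1.12% of all, and GTCACGTG, searched on both strands, in 8 (24.2%) and 2.55% of all. Both longer forms contain the E-box, and 5 members held both. The 27025 genes include genes without reads here, whereas all 39 members had reads, so these shares come from unlike sets. Shares among genes with reads were not computed. These motifs were searched because they are known near lysosomal gene starts, so a higher share among the members is not a test. A match describes the letters and does not show binding. All longer-form sites, in 10 members, follow with the E-box in capitals and 9 bases on each side, or fewer at the window's edge. The flanks can thus be compared. Distances run from the window's RefSeq start to the first base of the E-box. That start need not be where the transcripts with reads begin. The Ctsa sites (164833752 to 164833792 of chromosome 2) lie past the first exons of Ctsa-201 and Ctsa-202, which end at 164833196. The Ctsd site at minus 98 lies within the first exon of Ctsd-202 (142387737 to 142388038).
Ctsa, minus 12: gcaaactgtCACGTGatgcagatg
Ctsa, plus 6: gcagatgctCACGTGaccagagct
Ctsd, minus 98: cccgcgtctCACGTGacccgttga
Ctsd, minus 245: tccccCACGTGacctgtatc
Gla, minus 194: gatctcggtCACGTGagcaactct
Gla, minus 227: gcgattgatCACGTGagcatctac
Mcoln1, minus 45: cgccccgctCACGTGaccgcggcg
Mcoln1, minus 71: cgcgcttgtCACGTGttcagttca
Atp6v0d1, minus 3: tactgcggtCACGTGagacgcggt
Atp6v0e, plus 4: cgcgccgatCACGTGagcctctgt
Atp6v1a, minus 131: tttttaaatCACGTGataggctta
Atp6v0b, minus 36: cgcgggggtCACGTGgggtcggcg
Glb1, minus 48: cttctgagtCACGTGgcctacaga
Lamp1, minus 28: gccgactggCACGTGaccacatca

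Of the 11 genes with the E-box and at least 20 reads, 5 were higher, 1 was lower and 5 had intervals that held 1, with a median log2 ratio of 0.45. Of the 19 without it, 10 were higher, 1 was lower and 8 had intervals that held 1, with a median of 0.50. Of the 8 with a longer form and at least 20 reads, 3 were higher and 1 was lower, with a median of 0.34. Of the 4 with both longer forms and at least 20 reads, Ctsa, Ctsd, Mcoln1 and Atp6v0d1, none was higher and Ctsd was lower, a call lost with total counts. Among all 7529 genes 11.3% were called each way. Ctsz and Npc2, at the ends of the range, had no E-box in this window.

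**Figure D5:**
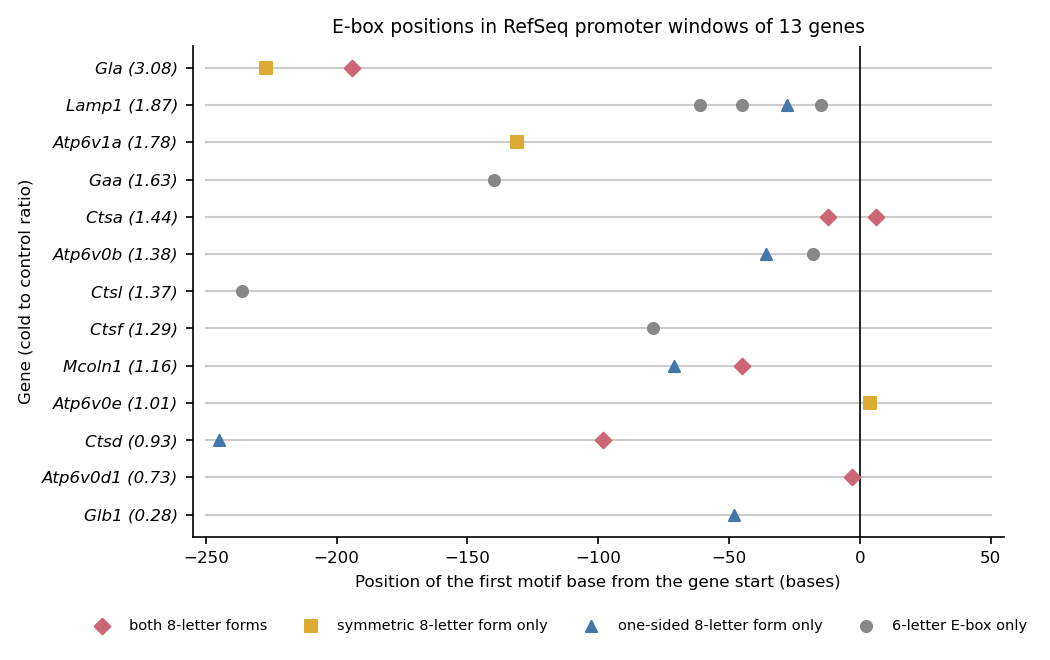
Position of each E-box relative to the RefSeq start of its window (in bases, the line marks the start, whose first base is 1) for the 13 genes that hold one. Genes are ordered from the highest to the lowest cold to control ratio, and the symbol shows which longer form an E-box belongs to. Lamp1 has 4 E-boxes within 61 bases of its start.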

How the data were processed

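Native poly(A)+ RNA, 500 ng per library, was read on a nanopore, per the labels' protocols. The authors deposited whole-number read counts per Ensembl transcript, not normalized. The submitters' processing notes name minimap2 and GRCm38, and no label states the other upstream steps. Totals were 1698124 (control) and 1215617 (cold) reads.

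Counts were summed to genes by identifier in GENCODE M21 (GRCm38). Entries without a gene held 0.0571% and 0.0652% of reads. Library sizes were multiplied by TMM factors (edgeR 4.0.16), 0.940 and 1.06. Ratios and shares carry exact Clopper-Pearson intervals at 95%, share differences Newcombe intervals, and log2 ratios a prior of 0.5 reads; intervals cover counting error only. The calculation was tested on simulated data. DESeq2 1.42.0 size factors were an alternative.

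Members and lists were chosen with earlier results of these data known. All 39 members are named. From other lists, names come from up to 2 genes with the highest ratio, 2 with the lowest and 2 with the most reads, among those with at least 50 summed reads. A gene of these lists is not reported here. Adgre1, Cd68, Csf1r, C1qb, C1qc, Npc2-203 and genes listed in neither library were named after their values were seen. The smallest planned fold class, below 1.5, was counted but is not printed. Annotated copies sharing at least 100 words of 31 bases with a member had at most 14 reads. Sequences are from RefSeq.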

Additional observations from a re-analysis of the deposited data

How the results depend on the processing

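Scaling mattered most. Total counts, and total counts without mitochondrially encoded genes, moved the median log2 ratio of all genes to 0.17 and 0.13. The median of the members was then 0.55 and 0.51 in place of 0.37, that of the lysosome members likewise 0.55 and 0.51, and that of the pump 0.49 and 0.44 in place of 0.31. The summed ratio was 1.37 and 1.33 in place of 1.21. Under both scalings 1 member, of the lysosome, was lower in place of 4, and 0 of the pump. Each of these scalings raises the ratio of every gene by a common factor. The shares of all genes then called are not given here, so these counts describe no trait of the members. Ctsb, Ctsd and Atp6v1g1 lost their calls, while Ctsa and Lipa under both, and Ctsf with total counts, gained a call as higher. The log2 ratio of Ctsd turned to 0.068 and 0.020. With DESeq2 size factors, protein-coding transcripts alone or a prior of 2 reads all 19 calls were kept. From the most abundant transcript alone the medians were 0.45 for all members and 0.50 for the lysosome, Ctsd and Lamp2 lost their calls, and Ctsa gained one as higher. At 100 or more reads they were 0.45 and 0.49, and 0.15 for the pump. Without mitochondrially encoded reads the members made up 0.766% and 1.02% of reads. No paired analysis was possible because each group has 1 library. Depth limits the shallow genes, whose intervals are wide.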

Other observations

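Autophagy genes, which deliver cargo to lysosomes, differed in both directions. Of 30 with at least 20 reads, 3 were higher and 6 lower, beside 11.3% each way among all genes. Gabarap, of the family that coats autophagosomes, had 448 and 466 reads and was 1.28-fold higher (1.12 to 1.46). Gabarapl1 of that family had 116 and 159 reads and was 1.69-fold higher (1.32 to 2.17). Map1lc3a, also of it, had 495 and 310 reads and was 1.29-fold lower (1.12 to 1.497). Members of 1 family thus lay on both sides. Atg3, which helps attach these proteins to lipid, had 91 and 46 reads and was 1.60-fold lower (1.11 to 2.34).

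Of 24 genes that bring enzymes to lysosomes, 2 were higher and 1 lower, beside 11.3% each way among all genes. Their median log2 ratio was 0.19. Rab7, a GTPase of late endosomes, had 215 and 233 reads and was 1.34-fold higher (1.11 to 1.62). Sort1, a sorting receptor, had 108 and 116 reads and was 1.32-fold higher (1.01 to 1.74). Gga2, an adaptor of sorting vesicles, had 52 and 19 reads and was 2.22-fold lower (1.29 to 3.98). The cathepsin inhibitor Cst3 had 1181 and 877 reads and a ratio of 0.916 (0.838 to 1.00).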
